A study of Mus musculus with 22 samples.

Results

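The genes described here encode the nuclear-encoded subunits of the respiratory chain and of the ATP synthase, the enzymes that make most of the ATP of a mitochondrion. They were chosen by symbol: protein-coding genes that begin with Ndufa, Ndufb, Ndufc, Ndufs, Ndufv, Uqcr or Atp5, the genes Sdha to Sdhd, and genes that begin with Cox4 to Cox8 followed by a letter, with assembly factors and pseudogenes left out. The rule found 85 genes (called members below) among 49671 gene identifiers, of which 38 belong to complex I, 4 to complex II, 8 to complex III, 18 to complex IV and 17 to complex V. The study measured RNA of mouse cochleae in 22 libraries. Every mouse was PrestinCreERT2/+;RiboTagHA/+: the prestin locus drives a tamoxifen-dependent Cre in outer hair cells, the electromotile sensory cells, and those cells then make the ribosomal protein Rpl22 with a haemagglutinin epitope. An antibody to the epitope brought down their ribosomes with the RNA on them (IP), and RNA of whole cochleae, outer hair cells included, was the comparison (input). Both fractions had 2 libraries at P8, P14, P28 and 6 weeks and 3 at 10 weeks, which makes 11 IP and 11 input libraries. All groups received tamoxifen, at 3 mg per 40 g of body weight under 21 days of age and 9 mg per 40 g from then on, and all carry 1 prestin allele with the Cre insert.

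Electrons from NADH enter the respiratory chain at complex I (NADH dehydrogenase, Nduf genes) and electrons from succinate at complex II (succinate dehydrogenase, Sdh genes). They pass through complex III (cytochrome bc1, Uqcr genes) to complex IV (cytochrome c oxidase, Cox genes), which reduces oxygen, and complex V (ATP synthase, Atp5 genes) uses the proton gradient that results. Some subunits of complexes I, III, IV and V, among them the catalytic core of complex IV and cytochrome b of complex III, are encoded by the mitochondrial genome and made on mitochondrial ribosomes, while the genes described here are nuclear and translated on cytosolic ribosomes, the kind that carries Rpl22. In the cochlea the stria vascularis, whose ion pumps keep up the endocochlear potential, is known for its many mitochondria, and outer hair cells hold mitochondria along their lateral wall.

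The IP libraries held 30757875 to 49470561 reads and the input libraries 33170715 to 71023032, and values were deposited as CPM, the reads of a gene scaled to all reads of its library. Reads outside annotated genes took 20.2 to 47.7% of the IP libraries and 11.1 to 20.4% of the input libraries. Of these libraries 3 stood apart from the rest by their low number of detected genes: P8 input 2, in which the gene Gm42418 alone took 58.3% of gene reads, P14 IP 1 and P28 IP 2. Counts of members called in IP against input are given with and without them. Other values include them unless stated. Outer hair cell markers were higher in IP: Ikzf2, a transcription factor of these cells, had 21.9 to 73.8 CPM (median 56.6) in IP and 2.63 to 11.4 CPM (median 8.61) in input, and Ocm, the calcium buffer oncomodulin, had 111 to 543 CPM (median 294) in IP and 12.2 to 104 CPM (median 38.6) in input. The prestin gene itself, Slc26a5, had 0.0655 to 53.1 CPM (median 11.5) in IP and 0.301 to 10.5 CPM (median 3.996) in input and did not pass the test (limma adjusted p = 0.111). Among 11 outer hair cell markers, 8 were higher in IP and none was lower.

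The IP libraries also held RNA of markers of other cochlear cell types, at the levels given below. On average the members were a smaller part of the RNA in IP than in input libraries. Together their share of gene reads was 0.348 to 0.547% in IP libraries (0.482 ± 0.0643%, SD, n = 11) and 0.285 to 1.72% in input (1.30 ± 0.376%, n = 11). The low end of input was P8 input 2. The other 10 input libraries lay between 1.14 and 1.72% (1.40 ± 0.174%), all of them above every IP library. The shares of member reads in complexes II to V overlapped between the fractions. That of complex I was higher in every IP library (31.9 to 35.5%) than in every input library (28.2 to 30.5%), which was not tested. Complex I took 33.9 ± 1.14% of member reads in IP and 29.6 ± 0.671% in input, and complex V 31.7 ± 2.81% in IP and 34.4 ± 1.23% in input (n = 11 each). Complex II took 7.90 ± 1.32% in IP and 6.60 ± 0.547% in input, complex III 7.58 ± 1.75% in IP and 7.68 ± 0.909% in input, and complex IV 18.9 ± 1.91% in IP and 21.7 ± 1.24% in input. In such bulk libraries fewer cells of a type and less RNA per cell cannot be told apart.

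**Figure D1:**
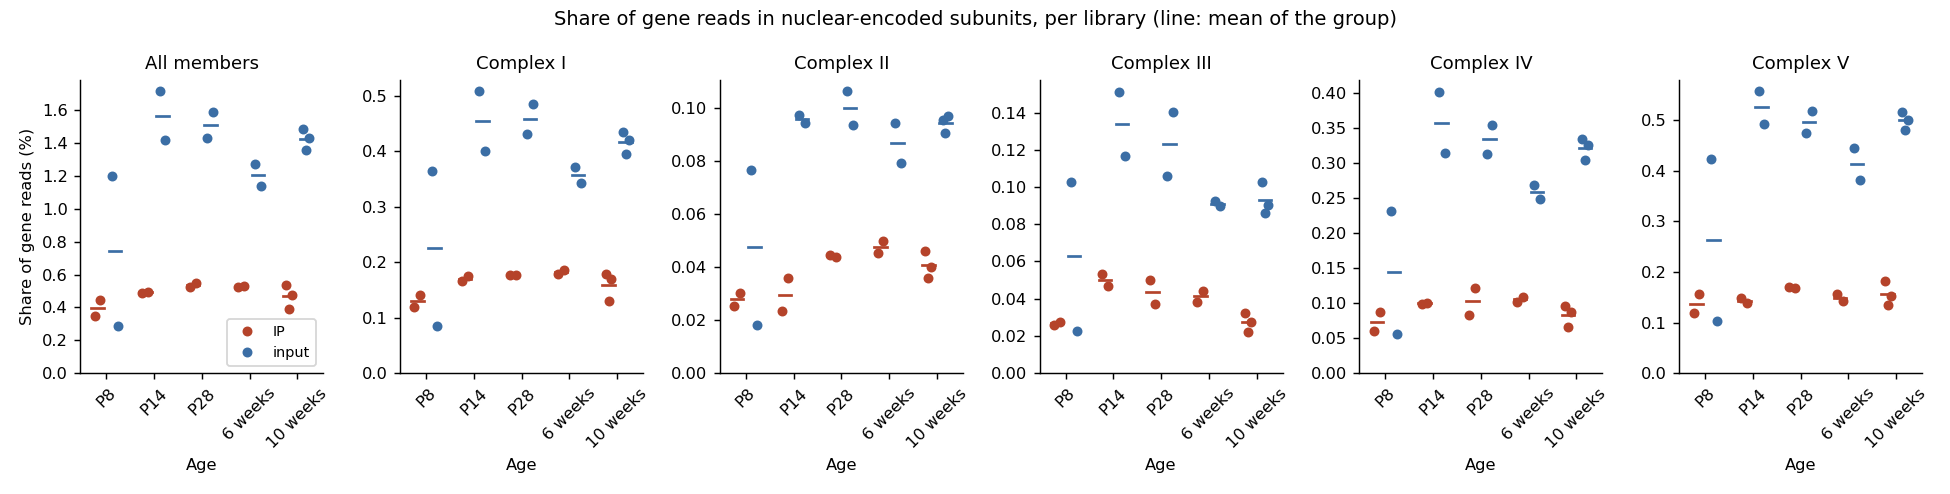
Share of gene reads (%, y axis) taken by all members and by each complex, per library (points) and group mean (lines) against age, with IP in red left of input in blue. Input points lie above IP points at every age except P8 input 2, the low blue point at P8 (0.285% for all members).

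Gene by gene, IP was set against input over all 5 ages, each age weighing the same, on log2(CPM + 1) with limma. Of the 85 members, 80 passed the filter of 1 CPM in at least 2 libraries. Of these 80, 63 were lower in IP, 1 was higher and 16 were not called; a call needed an adjusted p (Benjamini-Hochberg) under 0.05. Over all 18737 genes tested, 12.5% were lower and 20.0% were higher in IP. The median gene stood at a log2 difference of 0.13, and all differences below are given relative to the median gene of their comparison, while tests are of the unshifted difference. The members' median was -1.46, and 76 of 80 lay below the median gene. With TMM scaling 67 members were lower and 1 higher, while 23.2% of all genes were lower and 20.6% higher. Count tests on the recovered reads called 67 members lower and 0 higher with edgeR (21.0% and 19.9% of all genes) and 67 lower and 1 higher with DESeq2 (22.8% and 24.3%). Without the 3 libraries that stood apart, limma called 68 members lower and 2 higher (22.4% and 25.5% of all genes).

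**Figure D2:**
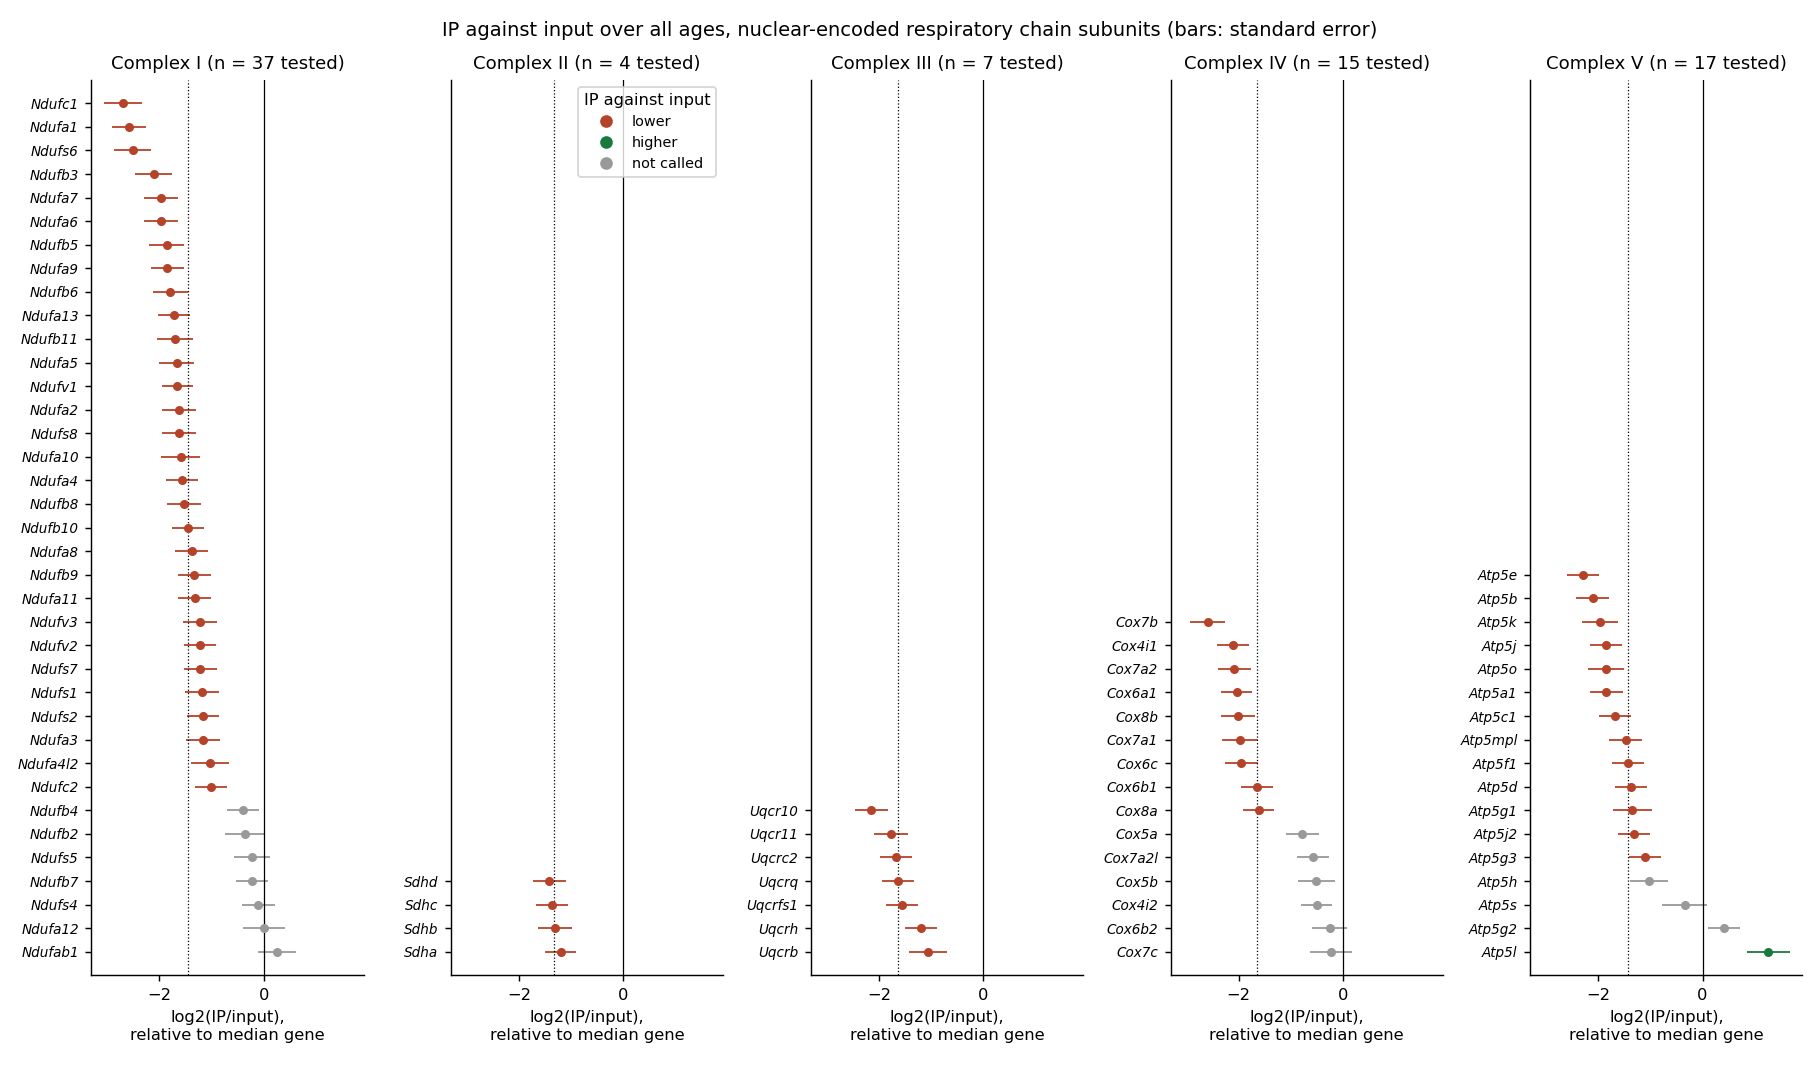
Log2 difference of IP against input over all ages, relative to the median gene (x axis), for the 80 tested members by complex; points are estimates, bars their standard error, the dotted line the median of the complex. Of the points, 63 are lower (red), 16 are not called (grey) and 1, Atp5l, is higher (green).

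Since the members moved together, their promoters were searched for letters they share. Windows of 300 bases, 250 before to 50 after the start of the gene, were available from RefSeq (GRCm38.p6) for 67 of the 85 genes, 72 windows in all, and both strands were searched. GCGCANGCG, core letters of the site of nuclear respiratory factor 1 (NRF1), was in 21 of 72 member windows (29.2%) and in 8.51% of 21183 windows of other protein-coding genes. AAGATGGCG, core letters of TISU, the translation initiator of short 5′ ends, was in 9.72% of member windows and 1.80% of the others, and the shorter AAGATGGC, a YY1 site that lies within it, in 12.5% of member windows and 3.02% of the others. CCGGAAGT, an ETS site, was in 6.94% of member windows and 5.14% of the others, GGGCGGGG, an SP1 site, in 15.3% of member windows and 23.6% of the others, and TATAAA in 11.1% of member windows and 12.6% of the others. By call, 15 of 54 windows of lower members and 4 of 14 of members not called held the NRF1 letters. They were in 9 of 35 windows of complex I, 2 of 3 of complex II, 2 of 5 of complex III, 1 of 13 of complex IV and 7 of 16 of complex V.

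Windows of 4 members show this difference in make-up; capitals mark the NRF1 letters on either strand (Sdha, Ndufs6 and Cox6a1), the TISU letters (the last run of capitals in Ndufs6) and TATAAA (Cox8b). Sdha lies at chr13:74350191-74350490, Ndufs6 at chr13:73328433-73328732, Cox6a1 at chr5:115348909-115349208 and Cox8b at chr7:140900397-140900696, all on the minus strand.
Sdha: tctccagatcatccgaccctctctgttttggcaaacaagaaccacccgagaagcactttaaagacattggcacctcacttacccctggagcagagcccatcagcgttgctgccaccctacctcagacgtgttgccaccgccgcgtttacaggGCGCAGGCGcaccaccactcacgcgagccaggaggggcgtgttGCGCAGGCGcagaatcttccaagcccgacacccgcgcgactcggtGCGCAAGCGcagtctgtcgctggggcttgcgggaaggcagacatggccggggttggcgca
Ndufs6: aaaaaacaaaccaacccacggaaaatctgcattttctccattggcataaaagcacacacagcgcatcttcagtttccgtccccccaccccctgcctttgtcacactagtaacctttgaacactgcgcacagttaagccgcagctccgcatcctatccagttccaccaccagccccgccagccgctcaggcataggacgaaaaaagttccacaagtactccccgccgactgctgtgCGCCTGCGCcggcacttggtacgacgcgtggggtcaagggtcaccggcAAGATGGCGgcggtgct
Cox6a1: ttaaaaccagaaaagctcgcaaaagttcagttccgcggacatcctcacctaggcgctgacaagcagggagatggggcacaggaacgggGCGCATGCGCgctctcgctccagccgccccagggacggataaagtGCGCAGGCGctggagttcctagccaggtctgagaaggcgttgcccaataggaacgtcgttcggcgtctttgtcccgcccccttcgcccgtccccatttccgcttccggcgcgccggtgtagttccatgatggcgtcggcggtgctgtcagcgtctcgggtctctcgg
Cox8b: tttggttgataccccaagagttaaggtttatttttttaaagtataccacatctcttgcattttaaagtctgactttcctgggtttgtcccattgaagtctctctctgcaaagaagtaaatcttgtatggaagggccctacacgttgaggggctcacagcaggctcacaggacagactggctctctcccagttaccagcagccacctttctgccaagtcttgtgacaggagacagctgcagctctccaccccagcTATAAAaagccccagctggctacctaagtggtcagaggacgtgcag
The NRF1 letters stand in 3 separate places in the Sdha window, in 2 in that of Cox6a1 and in 1 in that of Ndufs6. The window of Cox8b, a muscle isoform, has none of them but a TATAAA. These windows are examples, and that of Cox7a1, also a muscle isoform, held neither the NRF1 letters nor TATAAA. All 4 genes were lower in IP (-1.20 for Sdha, -2.51 for Ndufs6, -2.04 for Cox6a1 and -2.01 for Cox8b). A match is a description of the letters, and binding was not measured.

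In complex I, 30 of 37 tested members were lower in IP and none was higher (median -1.45). All 6 tested core subunits, which carry the flavin, the iron-sulphur clusters and the quinone site, were lower (median -1.22), as were 24 of 31 accessory subunits (median -1.53). Ndufc1, a small accessory subunit of the membrane arm, had 0.148 to 13.1 CPM (median 7.69) in IP and 3.15 to 63.6 CPM (median 44.6) in input. Its difference was -2.70 (SE 0.37, limma adjusted p = 6.68e-08). Ndufa1, an accessory subunit that complex I needs for its assembly, had 5.66 to 36.1 CPM (median 15.7) in IP and 9.56 to 185 CPM (median 91.7) in input, a difference of -2.58 (SE 0.32, adjusted p = 8.53e-09). Ndufs6, a zinc-binding subunit of the peripheral arm, had 0.127 to 14.4 CPM (median 8.71) in IP and 2.28 to 99.6 CPM (median 37.7) in input, a difference of -2.51 (SE 0.35, adjusted p = 1.47e-07). The lowest IP values of Ndufc1 and Ndufs6 were those of P28 IP 2. For Ndufc1, Ndufa1 and Ndufs6 every IP library lay below every input library other than P8 input 2. The same held for 42 of the 80 tested members and 3.47% of all genes tested, and P8 input 2 was the lowest input library for 77 of the 80 members and 60.1% of all genes.

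All 4 genes of complex II were lower in IP, within a narrow range of -1.42 to -1.20 (median -1.34). Sdha, the flavoprotein that oxidises succinate, had 53.5 to 161 CPM (median 119) in IP and 24.7 to 385 CPM (median 313) in input, a difference of -1.20 (SE 0.30, limma adjusted p = 0.004). Sdhb, the iron-sulphur subunit, had 15.4 to 41.0 CPM (median 23.8) in IP and 5.27 to 96.8 CPM (median 74.2) in input, a difference of -1.31 (SE 0.32, adjusted p = 0.00313). The membrane anchors Sdhc and Sdhd stood at -1.37 (SE 0.31, adjusted p = 0.00103) and -1.42 (SE 0.32, adjusted p = 0.000965). Complex II is the only one of the 5 with no subunit from the mitochondrial genome.

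In complex III, 7 of 7 tested members were lower in IP (median -1.63). Uqcr10, a small accessory subunit, had 11.4 to 32.8 CPM (median 18.8) in IP and 8.87 to 179 CPM (median 101) in input, a difference of -2.15 (SE 0.32, limma adjusted p = 6.03e-07). Uqcr11, the smallest accessory subunit, had 6.68 to 29.5 CPM (median 16.0) in IP and 6.73 to 111 CPM (median 58.7) in input, a difference of -1.76 (SE 0.33, adjusted p = 7.61e-05). Uqcrc2, one of the core proteins on the matrix side, stood at -1.67 (SE 0.31, adjusted p = 7.02e-05), and Uqcrfs1, the Rieske iron-sulphur protein, at -1.56. Its partner core protein Uqcrc1 is listed at 0 in all 22 libraries, and so is the complex I core gene Ndufs3. Both are genes that respiring cells use, so nothing is read from these values.

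In complex IV, 9 of 15 tested members were lower in IP and none was higher (median -1.65). Cox7b had 0.317 to 22.8 CPM (median 13.8) in IP and 6.77 to 122 CPM (median 83.6) in input, a difference of -2.59 (SE 0.34, limma adjusted p = 2.72e-08). Cox4i1, the nuclear subunit that binds adenine nucleotides, had 73.9 to 155 CPM (median 122) in IP and 49.4 to 773 CPM (median 641) in input, a difference of -2.10 (SE 0.31, adjusted p = 5.11e-07). Cox7a2, the isoform of most tissues, had 9.88 to 46.8 CPM (median 21.0) in IP and 9.42 to 166 CPM (median 121) in input, a difference of -2.08 (SE 0.31, adjusted p = 1.06e-06). For these 3 genes all IP libraries lay below the 10 input libraries other than P8 input 2. The lowest IP value of Cox7b was that of P28 IP 2.

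In complex V, 13 of 17 members were lower in IP and 1 was higher (median -1.43). All 5 subunits of the F1 part, which binds nucleotides, were lower (median -1.85), as were 2 of 3 genes of the c ring and 3 of 4 of the peripheral stalk. Atp5b, the catalytic beta subunit, had 103 to 240 CPM (median 147) in IP and 81.3 to 989.9 CPM (median 792) in input, a difference of -2.11 (SE 0.31, limma adjusted p = 7.64e-07). Atp5e, the epsilon subunit of the central stalk, had 17.6 to 47.8 CPM (median 24.9) in IP and 15.9 to 201 CPM (median 167) in input, a difference of -2.29 (SE 0.31, adjusted p = 7.25e-08). Atp5k, subunit e of the membrane part, had 3.13 to 19.9 CPM (median 12.2) in IP and 4.83 to 101 CPM (median 57.1) in input, a difference of -1.97 (SE 0.34, adjusted p = 1.50e-05).

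Atp5l, subunit g, which works beside subunit e where ATP synthases pair, was the only member higher in IP. It had 3.74 to 18.5 CPM (median 9.96) in IP and 0.0141 to 8.35 CPM (median 4.80) in input, a difference of 1.27 (SE 0.41, limma adjusted p = 0.00638). All IP libraries lay above all input libraries at P14, P28, 6 weeks and 10 weeks, and the fractions overlapped at P8. Of the stretches of 50 bases in its longest coding transcript, 84.8% also occur in annotated transcripts of 14 other genes, with Gm10221, Atp5l2-ps and Gm4853 leading. That transcript has 544 bases, while the merged exons of Atp5l cover 6443 bases. Where in these exons the counted reads lay is not given. Reads listed as not uniquely aligned, 7.95 to 21.4% of IP and 19.1 to 51.4% of input libraries, were counted to no gene. Which genes those reads came from is not given, and edgeR did not call Atp5l.

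**Figure D3:**
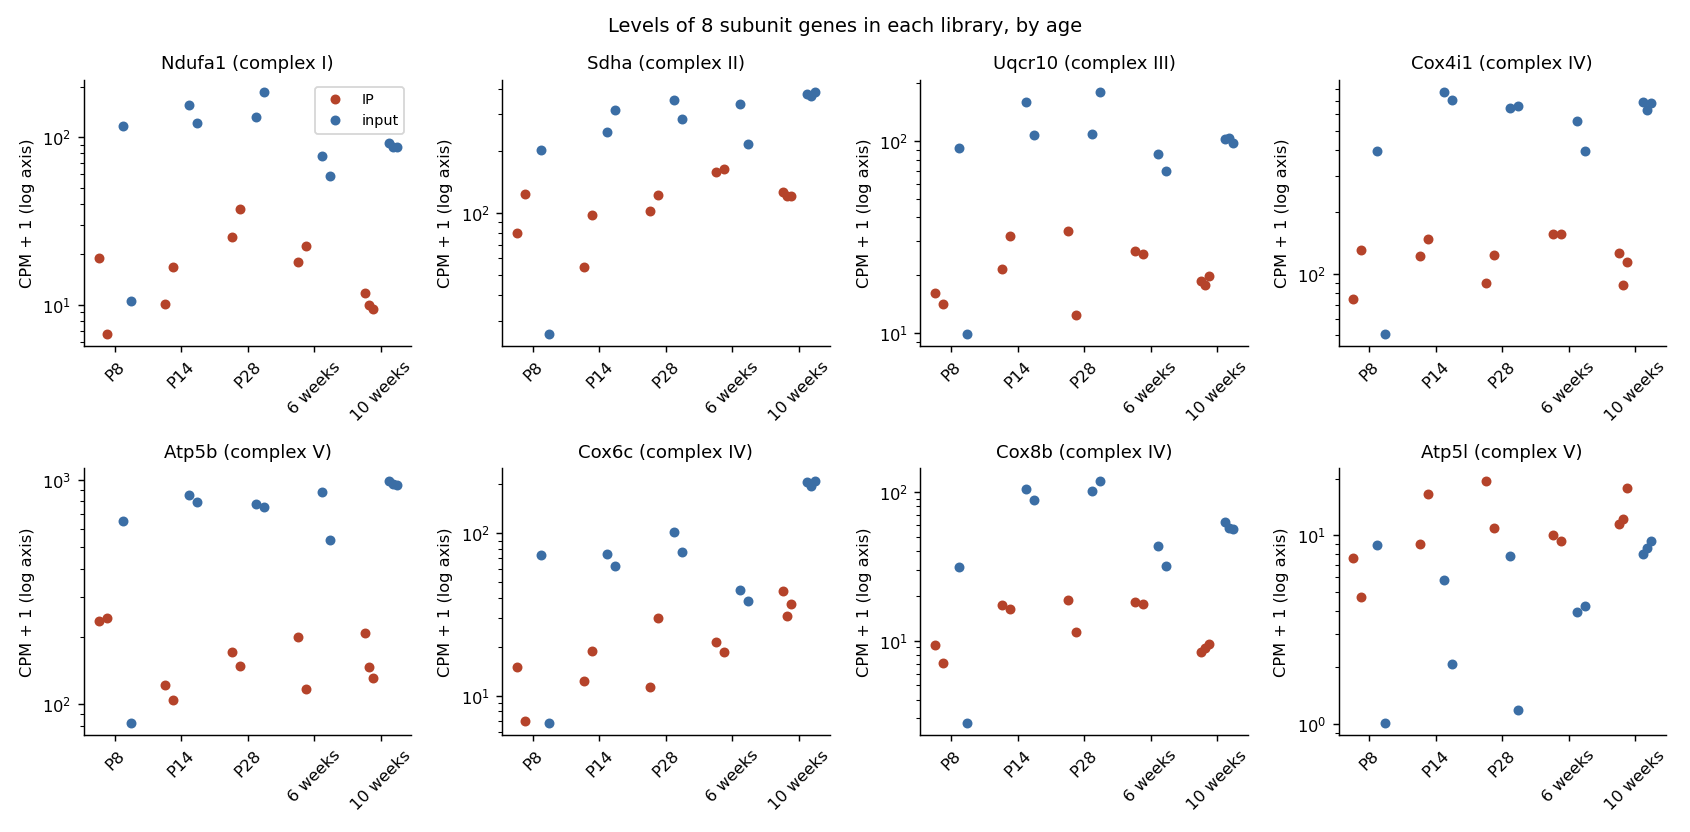
CPM + 1 (log y axis) of 8 members in each library, by age, with IP in red left of input in blue. Ndufa1, Sdha, Uqcr10, Cox4i1, Atp5b, Cox6c and Cox8b lie lower in IP from P14 on, Atp5l lies higher in IP from P14 on, and the low blue points at P8 are P8 input 2.

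The 16 members not called lower or higher were mostly low in both fractions or shared sequence with other genes. In complex I they were Ndufb4 (-0.39), Ndufb2 (-0.35), Ndufs5 (-0.23), Ndufb7 (-0.22), Ndufs4 (-0.10), Ndufa12 (0.01) and Ndufab1 (0.26), the acyl carrier protein of the mitochondrion. In complex IV they were Cox5a (-0.77), Cox7a2l (-0.57), Cox5b (-0.51), Cox4i2 (-0.50), Cox6b2 (-0.25) and Cox7c (-0.23). In complex V they were Atp5h of the peripheral stalk (-1.02, limma adjusted p = 0.0543), Atp5s, coupling factor B (-0.34), and Atp5g2 of the c ring (0.41). Of 57 members with a mean input level of at least 50 CPM, 54 were lower in IP (median -1.63). The other 3 were Ndufb7, with 21.5 to 90.6 CPM (median 49.2) in IP and 7.58 to 92.5 CPM (median 75.8) in input, Cox5a, with 29.9 to 98.2 CPM (median 61.1) in IP and 8.21 to 175 CPM (median 122) in input, and Cox7a2l, with 13.3 to 65.2 CPM (median 36.2) in IP and 5.83 to 73.1 CPM (median 59.0) in input. Of 16 members between 5 and 50 CPM, 8 were lower (median -1.04), and of 7 members under 5 CPM, 1 was lower and 1 higher. These classes use input levels, which are themselves part of the comparison, so a high level favours a call of lower. The share of all genes called lower at the same levels was not counted, so nothing is read from these counts.

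Sequence shared with other genes moved with the calls. The share of 50-base stretches found in transcripts of other genes had a median of 16.2% (0 to 47.9%) among the 16 members not called and 0.0635% (0 to 43.4%) among the 63 lower ones. Atp5h was highest of those not called, and 18 genes held parts of it. The part of shared sequence in the calls was not tested. Exons of members overlapped exons of other annotated genes by at most 39.0%, which is the overlap of Ndufb6 with Smim27.

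The members' transcripts are short, and short transcripts were lower in IP across the genome. Of 48 members whose longest coding transcript is under 1000 bases, 77.1% were lower in IP, against 36.5% of 696 other protein-coding genes of that length. From 1000 to under 2000 bases the shares were 82.6% of 23 members and 23.8% of 2805 other genes, and from 2000 to under 4000 bases 85.7% of 7 members and 11.4% of 6044 other genes. Within each of these length classes the share among members was above that of the other genes. The other genes were not matched to the members by level, and the part of length in the members' difference was not tested. Across genes, length and difference had a Spearman rho of 0.19 over the 80 members and 0.41 over 14872 protein-coding genes; genes are not independent replicates and share libraries.

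**Figure D4:**
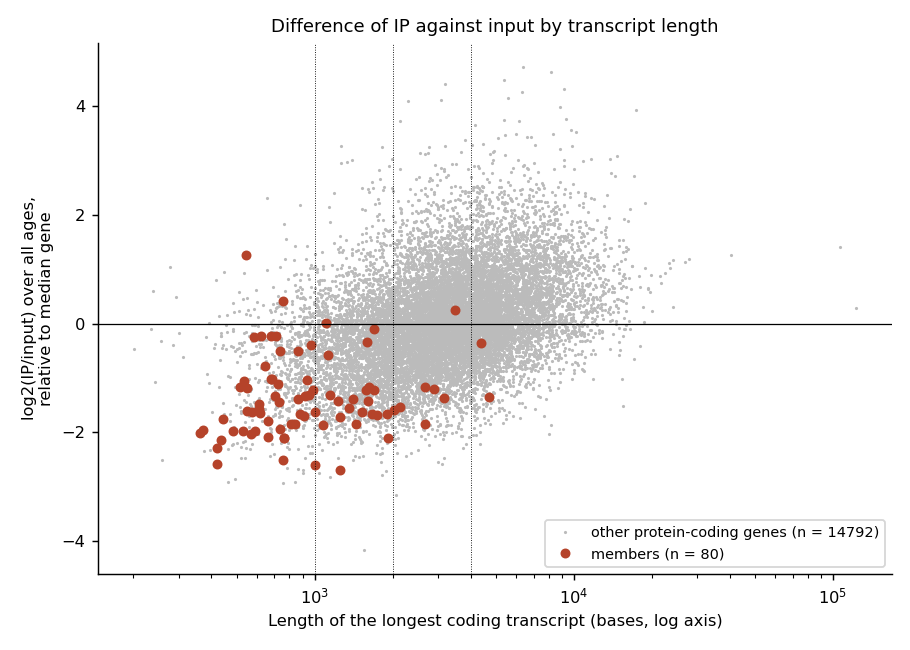
Log2 difference of IP against input over all ages, relative to the median gene (y axis), against the length of the longest coding transcript (log x axis), for the 80 tested members (red) and 14792 other protein-coding genes (grey). Dotted lines mark 1000, 2000 and 4000 bases. The members under 1000 bases have a median of -1.52, against -0.66 for other genes of that length.

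At single ages the members' median lay below the median gene each time, at -0.80 at P8, -1.63 at P14, -1.77 at P28, -1.30 at 6 weeks and -1.92 at 10 weeks. How many passed the test depended on age and scaling. With CPM as deposited, 0 members were lower at P8 (0.0374% of all genes were), 25 at P14 (2.64%), 24 at P28 (5.17%), 0 at 6 weeks (0.0267%) and 40 at 10 weeks (2.41%), and none was higher at any age, while 11.6% of all genes were higher at P8, 1.71% at P14, 3.16% at P28, 1.26% at 6 weeks and 1.80% at 10 weeks. With TMM scaling the counts were 42 at P8 (5.17% of all genes), 42 at P14 (8.75%), 56 at P28 (12.7%), 40 at 6 weeks (4.39%) and 62 at 10 weeks (9.47%), with Atp5l higher at P28 (9.79% of all genes). The median of all genes had shifted by 0.74 at P8, -0.28 at P14 and 0.27 at 6 weeks. Under TMM scaling 27 members were lower at all 5 ages (1.92% of all genes) and 13 at none (79.7%). Without P8 input 2, P14 IP 1 and P28 IP 2, CPM as deposited gave 54 lower members at P8 (5.51% of all genes), 59 at P14 (8.14%), 59 at P28 (11.6%), 41 at 6 weeks (3.38%) and 66 at 10 weeks (14.6%). Single libraries moved these counts: without P8 input 2 alone, 29 members were lower at P8 (2.05% of all genes), 59 at P14 (12.0%), 60 at P28 (12.5%), 17 at 6 weeks (1.54%) and 62 at 10 weeks (9.29%), and without P8 input 1, which leaves P8 input 2, 47 were higher at P8, as were 46.6% of all genes. Without P14 IP 1 (0.0213% of all genes), P14 input 1 (0.0160%) or P14 input 2 (0.262%) 0 members were lower at P14. Without single libraries of P28 itself 4 to 16 were lower at P28, the fewest without P28 input 2 (2.51% of all genes), and without single libraries of 10 weeks 6 to 18 were lower there, the fewest without 10 weeks input 1 (0.336%).

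The values of Atp5b show the ages one by one. At P8 it had 234 and 240 CPM in IP, against 657 and 81.3 CPM in input, where the second value is P8 input 2. At P14 it had 120.2 and 103 CPM in IP, against 852 and 792 CPM in input, and at P28 170.2 and 147 CPM in IP, against 776 and 751 CPM in input. At 6 weeks it had 198 and 116 CPM in IP, against 879.6 and 537 CPM in input, and at 10 weeks 206, 146 and 129.8 CPM in IP, against 989.9, 957 and 941 CPM in input. The fractions overlapped at P8 alone. Counted over all tested members, every IP library lay below every input library for 1 member at P8 (3.00% of all genes), 71 at P14 (31.2%), 64 at P28 (26.3%), 61 at 6 weeks (17.6%) and 72 at 10 weeks (29.6%). With TMM scaling these counts were 68 at P8 (27.3%), 52 at P14 (23.7%), 64 at P28 (24.3%), 72 at 6 weeks (35.4%) and 70 at 10 weeks (27.7%). With P8 input 2 left out, 58 of 80 members were lower without overlap at every age, against 7.74% of all genes; with it none of the 80 was, against 0.256%, and with it under TMM scaling 49 were, against 7.17%.

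**Figure D5:**
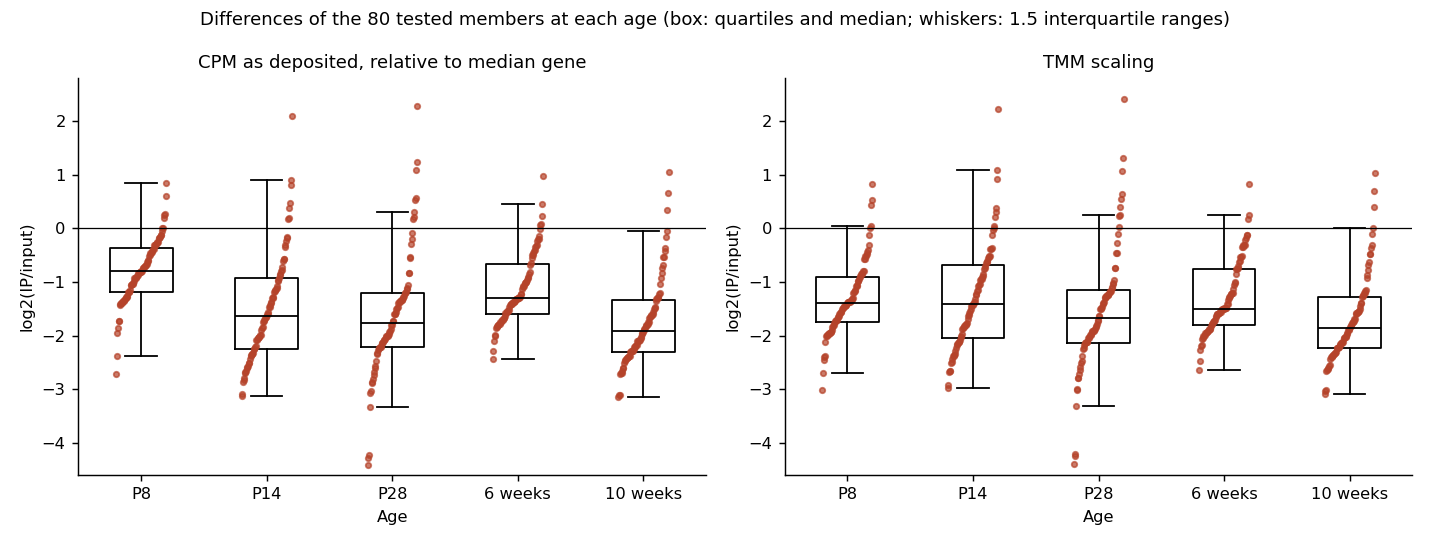
Log2 difference of IP against input at each age for the 80 tested members (points; boxes are quartiles and median, whiskers reach 1.5 interquartile ranges), with CPM as deposited relative to the median gene on the left and with TMM scaling on the right. The medians lie between -1.92 and -0.80 on the left. The lowest value on the left, -4.96 at P28, lies beyond the end of the axis and is not shown.

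Several subunits come as isoforms, and their shares were compared per kilobase of merged exons within each library. One gene led in most groups: Cox4i1 took 98.3 ± 1.69% of the COX4 isoforms in IP and 99.3 ± 0.483% in input (SD, n = 11 each), Cox6a1 100% in IP and 99.9 ± 0.204% in input, Cox6b1 97.8 ± 2.03% in IP and 99.2 ± 0.598% in input, and Ndufa4 96.6 ± 3.13% in IP and 97.2 ± 1.64% in input. Ndufa4, counted with complex I by its symbol, is now regarded as a subunit of complex IV. It had 31.7 to 90.8 CPM (median 54.8) in IP and 17.6 to 239.7 CPM (median 204) in input, a difference of -1.56 (SE 0.30, limma adjusted p = 0.000144), and its hypoxia-linked relative Ndufa4l2 had 0 to 6.66 CPM (median 0.943) in IP and 0.0463 to 7.81 CPM (median 4.26) in input, a difference of -1.04 (SE 0.36, adjusted p = 0.0482) that 20 of 33 alternative settings did not call. Of the 3 genes that encode the same c-ring protein, Atp5g3 took 95.3 ± 2.89% in IP and 97.0 ± 0.818% in input. Atp5g1 was lower in IP as well, with 0.106 to 14.7 CPM (median 8.24) in IP and 2.01 to 53.6 CPM (median 18.2) in input.

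The COX7A and COX8 groups were mixed. Cox7a2l, a relative of Cox7a2 that joins complexes III and IV into supercomplexes, took 34.8 ± 12.1% of the COX7A group in IP and 15.8 ± 2.75% in input, ranging from 14.6 to 59.3% in IP and from 10.3 to 20.8% in input. Cox7a2 took 36.8 ± 9.16% in IP and 50.7 ± 4.71% in input, and Cox7a1, the form of heart and skeletal muscle, 28.3 ± 12.0% in IP and 33.5 ± 6.62% in input. Of the COX7A genes, Cox7a1 and Cox7a2 were lower in IP and Cox7a2l was not called. Cox8b, the heart and muscle form of subunit VIII, took 23.5 ± 8.63% of the COX8 group in IP and 29.4 ± 10.99% in input, and Cox8a the rest; Cox8c, known from testis, was listed at 0 throughout.

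The share of Cox8b differed with age. In IP it averaged 13.5% at P8, 34.3% at P14, 29.8% at P28, 21.2% at 6 weeks and 20.3% at 10 weeks, and in input 16.2%, 39.0%, 44.8%, 21.2% and 27.1% at the same ages. Its level in IP was 8.41 and 6.10 CPM at P8, 16.3 and 15.2 at P14, 17.7 and 10.5 at P28, 17.2 and 16.7 at 6 weeks, and 7.42, 7.97 and 8.42 at 10 weeks. In input it was 30.4 and 1.79 CPM at P8, 104 and 86.6 at P14, 101 and 118 at P28, 42.6 and 30.7 at 6 weeks, and 61.6, 56.0 and 55.5 at 10 weeks. On the scale of shares both fractions were highest at P14 and P28. The summed level of 14 skeletal muscle markers, of which 1 was at 0 in all libraries, averaged 5.81 CPM at P8, 1.97 at P14, 22.8 at P28, 32.6 at 6 weeks and 25.5 at 10 weeks in IP, and 5.13, 13.8, 42.6, 44.5 and 60.4 CPM at the same ages in input. Erythroid markers, 8 genes of which none was at 0 in all libraries, averaged 179.5, 243, 369, 238 and 67.6 CPM at these ages in IP and 263, 910.2, 825, 442 and 355 CPM in input. The erythroid means in input were highest at P14 and P28. In IP the mean was highest at P28, while the libraries of P14 (199 to 287 CPM) and 6 weeks (219.7 to 256 CPM) overlapped. Means of the muscle markers were lowest at P14 in IP and at P8 in input. The part of either in the share of Cox8b was not tested. Cox6a2, another heart and muscle isoform, reached at most 1.23 CPM, in input, and was listed at 0 in all IP libraries.

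Per kilobase of merged exons, Cox8a led the members in both fractions, with 207 ± 53.6 in IP and 588 ± 164 in input (CPM over gene reads per kilobase, SD, n = 11). Cox4i1 followed with 145 ± 33.9 in IP and 585 ± 189 in input. Cox6a1 had 127 ± 31.0 in IP and 496 ± 182 in input. These neighbours lay within each other's spread in input, and with the length of the longest coding transcript Cox4i1 led in input and Atp5g3 in IP.

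Adult libraries (6 and 10 weeks) were set against young ones (P8 and P14) within each fraction. In IP, 0 of 80 members were called (3.43% of all genes were), and the members' median was -0.02. In input, 0 of 80 were called (2.75% of all genes), with a median of 0.22. The change of enrichment, which is the difference of IP against input in adult libraries minus that in young ones, had 0 members called among 0 genes in all (0%), with a median of -0.28. At an unadjusted p under 0.05 there were 4 members in IP (17.2% of all genes), 8 in input (14.6%) and 0 for the change (3.32%). DESeq2 called 2 members higher (7.60% of all genes) and 4 lower (6.54%) in IP, 1 higher in input (4.65%) and none for the change, and edgeR called 3 lower in IP (5.20%) and none in the other comparisons. With TMM scaling 2 members were lower in adult IP libraries: Ndufa4 (-0.88, SE 0.27, limma adjusted p = 0.0442) and Uqcr11 (-0.98, SE 0.30, adjusted p = 0.0426), while 5.56% of all genes were lower. In input, 69 members were higher without P8 input 1, which leaves P8 input 2 as the only P8 input library, and so were 36.7% of all genes; without P8 input 2 the count was 0. Of 8 spiral ganglion neuron markers, 7 were higher in adult libraries in both fractions, with a summed level of 733 to 1366 CPM at 6 and 10 weeks against 106 to 505 CPM at P8 and P14 in IP, and of 1757 to 3197 CPM against 43.6 to 1360 CPM in input; their part in these values was not tested.

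Values of Cox6c and Uqcrh at 6 and 10 weeks are given as examples. They were chosen after their values were seen, and these ages were not tested against each other. Other members differed as well. In input Ndufs6 had 99.6, 85.9 and 94.1 CPM at 10 weeks, against 37.7 and 24.1 CPM at 6 weeks. In IP Ndufb7 had 21.5, 36.2 and 46.3 CPM at 10 weeks, against 83.1 and 90.6 CPM at 6 weeks. Cox6c, a small subunit of complex IV, had 43.4, 29.9 and 35.8 CPM in IP at 10 weeks, against 20.5 and 17.7 CPM at 6 weeks. In input it had 206, 194 and 210.2 CPM at 10 weeks, against 44.0 and 37.2 CPM at 6 weeks. Uqcrh, the hinge protein of complex III, had 26.7, 24.6 and 27.6 CPM in IP at 10 weeks, against 65.5 and 87.8 CPM at 6 weeks, and in input 160.5, 95.5 and 104.7 CPM at 10 weeks, against 108.8 and 90.3 CPM at 6 weeks. How many members or genes lacked overlap between these ages was not counted. For Cox6c the ages did not overlap in either fraction, and for Uqcrh they did not overlap in IP. Input libraries of other ages lay between these for Cox6c, with 73.8 and 61.9 CPM at P14 and 100 and 76.0 CPM at P28. At P8 it had 72.2 CPM and, in P8 input 2, 5.79 CPM. Both share sequence with a copy, Cox6c with Cox6c2 (13.9% of its 50-base stretches) and Uqcrh with Uqcrh-ps1 (7.83%). Cox6c2 had 0.358 to 14.5 CPM in IP and 4.07 to 73.8 CPM in input, and its part in the values of Cox6c was not tested.

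Other genes of the pathway did not all follow the members. Of subunits that go by other symbols, Cyc1, the cytochrome c1 of complex III, had 10.7 to 56.9 CPM (median 37.4) in IP and 13.1 to 149 CPM (median 117) in input and was lower (-1.62, SE 0.31, limma adjusted p = 0.000115). Atpif1, the inhibitor of the ATP synthase, was lower as well (-1.82, SE 0.33, adjusted p = 4.29e-05), and Usmg5, a small ATP synthase subunit, stood at -1.11 (adjusted p = 0.055). Among mitochondrially encoded subunits 7 of 9 tested were lower (median -2.38), and none was higher; the 13 genes held 0.457 ± 0.180% of the reads counted to genes in IP and 3.18 ± 1.13% in input. Enzymes of the citric acid cycle, which supply the NADH and succinate, were lower for 9 of 13 genes and higher for none (median -1.23), led by Idh3a (-2.06), Idh3b (-1.67) and Mdh2 (-1.66).

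Assembly factors were called in both directions, against 12.5% lower and 20.0% higher over all genes. Of 18 for complex I, 4 were lower and 1 higher (median -0.78), with Ndufaf8 at -2.26, Ndufaf2 at -1.94 and Tmem186 at 1.12. Of 20 for complex IV, 3 were lower and 4 higher (median -0.49), shares near those of all genes. Among them Coa4, a small protein of the intermembrane space, had 2.12 to 42.1 CPM (median 30.1) in IP and 0.155 to 5.55 CPM (median 2.44) in input, a difference of 3.01 (SE 0.42, limma adjusted p = 1.22e-08), and Cox10, which makes haem O for complex IV, stood at 1.28. Of 4 for complex V, 2 were lower, Fmc1 (-2.23) and Tmem242 (-1.74), and 1 was higher, Atpaf1, a chaperone of the beta subunit, with 9.45 to 48.2 CPM (median 30.8) in IP and 1.20 to 23.5 CPM (median 9.68) in input (1.53, SE 0.34, adjusted p = 7.38e-05). Of 6 for complex III, Uqcc3 was lower (-1.37) and Ttc19 higher (0.95), and of 4 for complex II none was called. A further 17 genes serve the electron carriers coenzyme Q, electron transfer flavoprotein and cytochrome c (Cycs). Of these, 2 were lower and 3 higher (median -0.20), shares near those of all genes, with Coq7 at -1.79 and Coq3 at 1.40.

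Of 15 regulators of mitochondrial gene expression, none was called lower and 2 were higher (median 0.13), a share below the 20.0% higher over all genes. Ppargc1b, a coactivator of genes for the respiratory chain, had 7.36 to 55.9 CPM (median 22.4) in IP and 0.349 to 8.41 CPM (median 3.81) in input, a difference of 2.50 (SE 0.38, limma adjusted p = 8.28e-08). Its relative Ppargc1a had 27.4 to 148 CPM (median 81.2) in IP and 1.97 to 65.2 CPM (median 55.7) in input, a difference of 1.03 (SE 0.30, adjusted p = 0.00167). For Ppargc1b every IP library lay above every input library of its own age.

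Markers of other cell types that a cochlear sample can hold were also lower in IP in part. Of 8 stria vascularis markers 6 were lower in IP and 1 higher (median -1.17), and none was at 0 in all libraries. Their summed level was 1044 to 1656 CPM (median 1241) in IP and 289 to 5075 CPM (median 3988) in input. Of 8 spiral ganglion neuron markers 4 were lower (median -0.98), with a summed level of 106 to 1366 CPM (median 733) in IP and 43.6 to 3197 CPM (median 1873) in input. Of 8 erythroid markers 6 were lower (median -1.15), at 54.6 to 499 CPM (median 219.7) in IP and 65.0 to 1183 CPM (median 460.0) in input, and of 9 neutrophil markers 8 were lower (median -1.60), at 3.03 to 80.3 CPM (median 20.3) in IP and 2.18 to 190 CPM (median 111) in input. Skeletal muscle markers (3 of 13 lower, median -0.38) summed to 0.744 to 48.5 CPM (median 16.5) in IP and 0.929 to 75.3 CPM (median 26.1) in input. Brown fat markers (1 of 4 lower, median -0.63) summed to 0 to 10.0 CPM (median 1.57) in IP and 0.901 to 41.0 CPM (median 4.19) in input, and testis markers reached at most 0.546 CPM. The part of these cell types in the members' difference was not tested.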

How the data were processed

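The authors deposited 1 table of CPM values per library, 49671 gene identifiers each, scaled to all reads of the table, including entries that name no gene; these stayed out of all tests. Per the submitters' processing notes, reads were aligned with TopHat to GRCm38; for the counting tool and its use of strand, nothing is given in the sources used here. Per the design text the libraries are biological duplicates or triplicates, on which the p-values rest; where it has P21 the labels have P28, which is used here. Divided by the worth of 1 read, 100% of the values came out whole (tolerance 0.01), which gave back the read counts.

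The 18737 genes that reached 1 CPM in 2 or more libraries were tested two-sided on log2(CPM + 1) with limma 3.58.1 in R 4.3.3, with 1 mean per age and fraction, a trended prior and Benjamini-Hochberg adjustment over all genes; folds on this scale understate the change of low genes. There were 9 comparisons. Count tests by quasi-likelihood (edgeR 4.0.16) and with DESeq2 1.42.0 on the recovered reads called 3933 genes lower and 3732 higher, and 4265 lower and 4546 higher, over all ages. The limma fit was also run on simulated counts with the same spread for every gene and, apart from planted changes, the same make-up in all libraries. Such counts hold no library like P8 input 2, so nothing is concluded from them here. At 10 weeks same-numbered IP and input libraries deviated together from their group means (correlations of 0.11, 0.19 and 0.22, against at most -0.03 for other numbers). Deviations within a group cancel out, so higher values for equal numbers push those for other numbers down. Pairing by the replicate numbers in the titles was thus not settled. Lengths, overlaps and shared stretches of 50 bases came from GENCODE M21, promoter windows from RefSeq, and Python 3.11.15 did the counting. Intervals of single counts were not used. For each complex the 3 called members with the largest difference were named, with every member not called or higher, all isoform genes, and up to 3 called genes each way of other lists; Cox6c and Uqcrh were added after their values were seen. The members and lists were chosen with earlier results of these data known. Alternatives were another pseudocount, no filter, TMM scaling, CPM over gene reads, a fit restricted to a comparison's own libraries, a replicate block, libraries left out and, for shares and levels, another denominator or length.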

Additional observations from a re-analysis of the deposited data

Results flagged for a closer look

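Reads outside annotated genes stayed out of all comparisons. They made up 32.9 ± 8.74% of the IP libraries (SD, n = 11) and 13.3 ± 2.66% of the input libraries. Reads listed as not uniquely aligned were also counted to no gene, at 12.2 ± 3.97% in IP and 25.8 ± 9.59% in input. Reads listed as ambiguous took 1.05 ± 0.197% in IP and 1.78 ± 0.440% in input. The members' CPM values are scaled to totals that include all these reads. With CPM over gene reads only the count of lower members over all ages was 63, as with CPM as deposited.

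For 6 of 80 tested members, against 15.4% of all genes tested, every IP library lay above every input library at 1 age or more and below every one at another; these differences between ages were not tested. Ndufa12 was above at 1 age, P28, with 8.21 and 10.9 CPM in IP and 1.80 and 6.28 CPM in input, and below at 10 weeks. Ndufab1 was above at 2 ages, P8 and 10 weeks, with 28.5, 22.9 and 21.5 CPM in IP and 18.3, 19.9 and 18.2 CPM in input at 10 weeks, and below at P14. Ndufb7 was above at 1 age, 6 weeks, with 83.1 and 90.6 CPM in IP and 76.6 and 60.8 CPM in input, and below at P14 and 10 weeks. Ndufs4 was above at 1 age, 6 weeks, with 55.2 and 73.7 CPM in IP and 39.3 and 37.5 CPM in input, and below at P14. Ndufs5 was above at 1 age, 6 weeks, with 3.31 and 2.27 CPM in IP and 2.08 and 1.27 CPM in input, and below at 10 weeks. Cox7c was above at 1 age, P14, with 8.93 and 6.06 CPM in IP and 4.52 and 4.33 CPM in input, and below at 10 weeks. Groups held 2 or 3 libraries, too few for a test of outlying libraries within a group.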

How the results depend on the processing

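Over all ages the count of members called stayed within 1.5 times of 64 under every alternative run, with 59 to 71 called and at most 2 of them higher; leaving out single libraries gave 62 to 68. At single ages and between ages the counts moved, and the cause was not tested. They are given in the order P8, P14, P28, 6 weeks and 10 weeks, against 0, 25, 24, 0 and 40 called with CPM as deposited. TMM scaling gave 42, 42, 57, 40 and 62 members, edgeR 38, 39, 51, 38 and 61, and DESeq2 49, 44, 56, 50 and 61. Without P8 input 2, P14 IP 1 and P28 IP 2 the counts were 54, 59, 61, 41 and 66, with TMM scaling added 55, 61, 63, 56 and 66. With P8 input 2 alone left out and TMM scaling, an alternative chosen after seeing the data, they were 26, 41, 58, 39 and 62. No filter on low values gave 0 at P14, 3 at P28 and 16 at 10 weeks, a fit restricted to a comparison's own libraries 0 at P14, 0 at P28, 11 at 6 weeks and 69 at 10 weeks, and CPM over gene reads only 1 at P8 and 4 at 6 weeks. Leaving out each library in turn gave 0 to 47 at P8, 0 to 59 at P14, 4 to 61 at P28, 0 to 17 at 6 weeks and 6 to 62 at 10 weeks. The 47 at P8 were higher in IP and came without P8 input 1, which leaves P8 input 2 alone; without P8 input 2, 29 were lower at P8. Without either P8 input library 59 were lower at P14, 60 at P28, 17 at 6 weeks and 62 at 10 weeks. The lowest counts came without P14 IP 1 or either P14 input library (0 at P14), P28 input 2 (4 at P28) and 10 weeks input 1 (6 at 10 weeks), which left 1 or 2 libraries on a side; a lone library was taken to vary like the other groups.

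The replicate block called 65 members over all ages and 39 at 10 weeks, where same-numbered libraries deviated together. It moved no count by over 1.5 times. At the other ages the numbers were not shown to pair the libraries (correlations of -0.02 to 0.35, 2 pairs each). With TMM scaling the block called 48, 45, 60, 46 and 61 at the 5 ages.

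For adult against young libraries in IP, TMM scaling called 2 members, edgeR 3, DESeq2 6, the fit without the 3 libraries 1 and that fit with TMM scaling 1, and leaving out single libraries 0 to 3. In input, no filter and DESeq2 called 1 each, and leaving out single libraries 0 to 69. For the change of enrichment it gave 0 to 33, the highest without P8 input 1.

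Among 41 named members under 33 settings, 1269 of 1353 values kept direction and side of the threshold. Ndufa4l2 lost its call in 20 settings and Atp5l in 1, and Atp5h gained one in 12. Signs turned for 5 members, none of them called. For Ndufa12 (0.01), leaving out single libraries gave -0.22 to 0.24, leaving out the 3 libraries -0.36, with TMM scaling -0.38, and P8 input 2 left out with TMM scaling -0.036. For Ndufs4 no filter gave 0.0096. Leaving out single libraries gave -0.26 to 0.067 for Ndufs4, -0.80 to 0.12 for Atp5s, -0.54 to 0.040 for Cox6b2 and -0.52 to 0.043 for Cox7c.

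Over all libraries of a fraction, mean shares of gene reads by complex moved by less than 1 SD with the other denominator alone and with the 3 libraries alone left out. With the longest coding transcript as length, Cox4i1 moved to 294 per kilobase in IP and 1186 in input. Single counts are limited by depth at low levels: 1 read was worth 0.0141 to 0.0325 CPM, which limits members with a few reads in a library.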
